A study of Mus musculus with 5 samples.

Results

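Interferon-stimulated genes were followed through 5 libraries of haematopoietic stem cells (HSCs), the rare bone marrow cells that renew all blood lineages. They comprise 41 genes, chosen by symbol from the 35976 gene rows of the count table; genes of antigen presentation and the IFITM family were left out. All 41 symbols were rows of the table, and by role they were 4 interferon receptor chains, 7 STAT and IRF transcription factors, 9 sensors of foreign or double-stranded nucleic acid with the RNA editor ADAR, and 21 effectors.

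Each library came from 30 HSCs of a C57BL/6 mouse, sorted by flow cytometry as lacking lineage markers and CD34 and carrying Sca-1, c-kit and CD150, and was prepared by Smart-seq2, in which whole transcripts are copied and amplified from small cell numbers. The sample labels give 2 WT and 3 Ythdf3-/- libraries, and the series text states that 5 different mice were used but counts 2 knockout and 3 wild-type samples. YTHDF3 is a cytoplasmic protein that binds N6-methyladenosine in messenger RNA, and the comparison asks which transcripts differ in stem cells without it. Neither the labels nor the series text names the allele, the age or the sex of the mice, or any treatment with interferon. Ythdf3 itself went against the labels: its counts were 20 and 29 with the WT label, and 2, 339 and 366 in the libraries labelled Ythdf3-/- 1, 2 and 3. Libraries are therefore named by label only, and every direction below refers to the labels.

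The cells carried transcripts of HSC markers, and some libraries carried those of other lineages too. Kit, Hlf, Meis1, Mecom and Ly6a (the gene of Sca-1) had at least 10 counts in all 5 libraries. They stayed within a 4-fold range of CPM, the read count scaled to a common library total. The HSC markers Procr and Hoxb5 were also read everywhere but ranged further, by 6.83 and 4.05 times. Fgd5, another HSC marker, was near missing where the label was Ythdf3-/- 1 or 3 (2 and 5 counts) and had between 303 and 713 elsewhere. Slamf1, the gene of CD150, was near missing in the library labelled WT 2 (1 count), and Cd34, whose protein the sort excluded, reached 244 CPM in that labelled Ythdf3-/- 3. The library labelled WT 2 had 1061 counts of the erythroid factor Gata1 against at most 6 elsewhere, and adult globin genes took 3.55% of counts in that labelled Ythdf3-/- 1 against at most 0.0423% elsewhere. B lymphoid markers summed to 562 and 1284 CPM in the libraries labelled WT 1 and Ythdf3-/- 1 and to between 56.9 and 218 CPM in the others. The 10 monocyte and macrophage markers summed to 436 and 463 CPM under the WT label and to 1095, 736 and 715 CPM under the other, so their sum did not overlap between the labels. Most of it was Lyz2, read everywhere, and the complement gene C1qc had 10, 0, 364, 298 and 259 counts (libraries in label order), C1qb 12, 425, 0, 280 and 242, and C1qa 8, 0, 213, 1 and 164. Of the same list Ccr2 was at 0 in all 5 libraries, and Cd14, Adgre1 and Ly6c2 had at most 2 counts. The 8 plasmacytoid dendritic cell markers, of which Irf8 is also among the 41 genes, summed to 227, 12.4, 281, 76.8 and 172 CPM. Siglech and Klk1 were at 0 throughout and Spib had at most 9 counts, whereas Tcf4 had 85 to 1942, Ly6d 1006 in WT 1 by label and 1068 in Ythdf3-/- 1, Il3ra 394 in WT 1 and Ccr9 121 in Ythdf3-/- 3. The part of these markers in the results below was not tested. Totals ran from 6357862 to 16650134 counts, and in libraries of pooled cells fewer cells of a type and less RNA per cell cannot be told apart.

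Interferons act through cell surface receptors: IFNAR1 and IFNAR2 bind type I interferons, IFNGR1 and IFNGR2 bind interferon gamma. Type I signalling brings STAT2 and IRF9 into a complex that binds the interferon-stimulated response element (ISRE) of target promoters, while interferon gamma acts mainly through the gamma-activated sequence (GAS). The targets include enzymes and GTPases that block viruses, and several of the pathway's own parts. In HSCs, type I interferon is known to draw quiescent cells into cycle, and stem cells are known to keep part of this programme on without infection.

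The ISRE was visible in the promoters of many of these genes, and it is shown here because it is the element that their common name rests on. RefSeq promoters (mouse assembly GRCm38.p6, which is mm10; 250 bases before to 50 after the start site) were present for 33 of the 41 genes. The core of the element was searched on both strands as GAAA, any 2 bases and GAAA again (TTTC, 2 bases and TTTC on the other strand), and matches were allowed to overlap. It was found for 16 of the 33 (48.5%), against 3.99% of all 27025 genes with a promoter of the same length. The GAS letters, TTCNNNGAA, which read the same on both strands, were found for 13 of the 33 (39.4%) against 9.55% of all genes. A match is a run of letters and does not show that a factor bound there.

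Stretches of 60 bases upstream of the start site are printed for 10 of these genes, 5′ to 3′ on the gene's own strand, with ISRE core matches in capitals. The first 5 belong to genes with under 10 counts in at least 1 library.
Ifit1: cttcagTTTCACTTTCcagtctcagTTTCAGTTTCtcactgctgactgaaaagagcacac
Ifit3: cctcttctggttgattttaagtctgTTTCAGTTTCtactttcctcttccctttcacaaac
Rsad2: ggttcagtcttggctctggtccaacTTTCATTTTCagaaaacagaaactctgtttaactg
Oas3: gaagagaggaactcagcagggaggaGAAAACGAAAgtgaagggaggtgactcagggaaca
Gbp2: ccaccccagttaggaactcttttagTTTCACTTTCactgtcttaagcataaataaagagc
The other 5 belong to genes with at least 10 counts in every library.
Isg15: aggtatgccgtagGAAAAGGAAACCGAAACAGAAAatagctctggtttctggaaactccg
Bst2: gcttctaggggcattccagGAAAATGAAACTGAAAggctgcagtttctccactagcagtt
Gbp3: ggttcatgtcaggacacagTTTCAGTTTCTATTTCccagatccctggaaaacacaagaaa
Gbp7: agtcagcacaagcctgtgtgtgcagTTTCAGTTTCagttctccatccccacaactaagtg
Oas1a: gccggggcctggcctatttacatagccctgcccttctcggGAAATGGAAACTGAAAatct
Their positions in GRCm38.p6 are chr19:34640779-34640838 on the plus strand for Ifit1, chr19:34583382-34583441 on the plus strand for Ifit3, chr12:26456538-26456597 on the minus strand for Rsad2, chr5:120777700-120777759 on the minus strand for Oas3 and chr3:142620579-142620638 on the plus strand for Gbp2. For the second set they are chr4:156200850-156200909 on the minus strand for Isg15, chr8:71537562-71537621 on the minus strand for Bst2, chr3:142559980-142560039 on the plus strand for Gbp3, chr3:142530258-142530317 on the plus strand for Gbp7 and chr5:120907526-120907585 on the minus strand for Oas1a. All 10 lie between the start site and 149 bases before it.

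Isg15 held 3 overlapping matches, and Bst2, Gbp3 and Oas1a held a pair of overlapping ones. Ifit1 and Ifit3 each held a pair that did not overlap, of which the stretch of Ifit1 shows both and that of Ifit3 shows the one nearer the start site. By role, the core was found for 5 of 6 sensors, 9 of 16 effectors, 2 of 7 STAT and IRF factors (Stat2 and Irf2) and 0 of 4 receptors that had a promoter. By regularity of reading, it was found for 8 of 19 with at least 10 counts in every library and for 8 of 14 of the others.

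**Figure D1:**
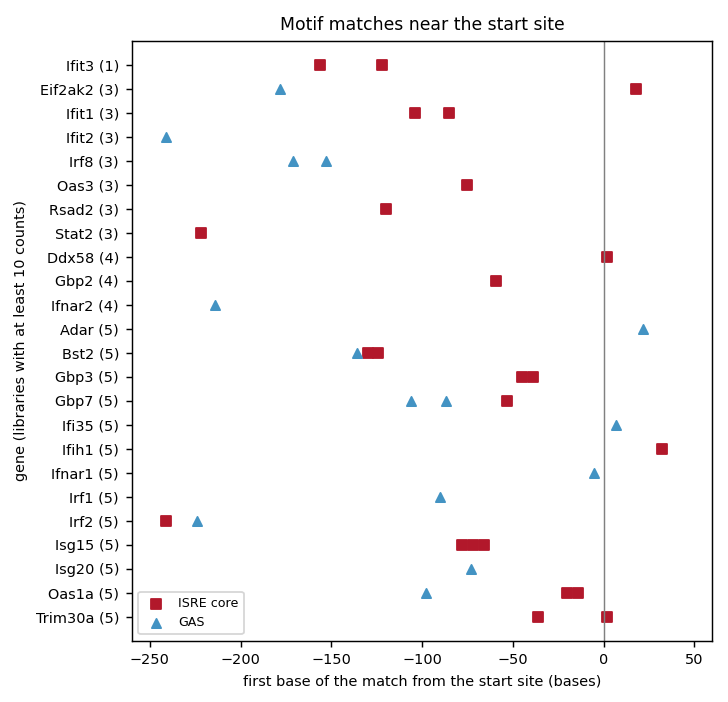
Position of each match to the ISRE core (squares) and to the GAS letters (triangles) in bases from the start site (0), for the genes with any match in the promoter; the number after each gene is how many of the 5 libraries had at least 10 counts. Genes with an ISRE match stand in the rows of 1, 3, 4 and 5 libraries alike.

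Most of these genes were expressed in HSCs, but few were expressed evenly. With at least 10 counts taken as presence, 22 of the 41 genes were present in all 5 libraries, 5 in 4, 9 in 3, 3 in 2 and 2 in 1. A gene was called steady when it was present in all 5 and its highest CPM was at most 4 times its lowest, and 3 genes met this: Gbp7, Ifi27 and Oas1a. Among all 11146 genes tested, 25.1% were steady by the same rule. Another 19 genes were present everywhere but ranged further (28.7% of all genes tested), and 19 were missing from 1 to 4 libraries (46.2% of all genes tested). Just inside the limit lay Oas1a, with a ratio of 3.81, and just outside it Irf3 with 4.27 and Gbp3 with 4.61. At a limit of 8 times, 14 genes would be steady, against 37.9% of all genes tested, and at 3 times Gbp7 alone, against 17.4%. Without any 1 library between 5 and 8 genes were steady, against 30% to 34.2% of all genes tested. Gbp7, Ifi27 and Oas1a were among them each time, as the rule requires of genes that pass on all 5 libraries.

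**Figure D2:**
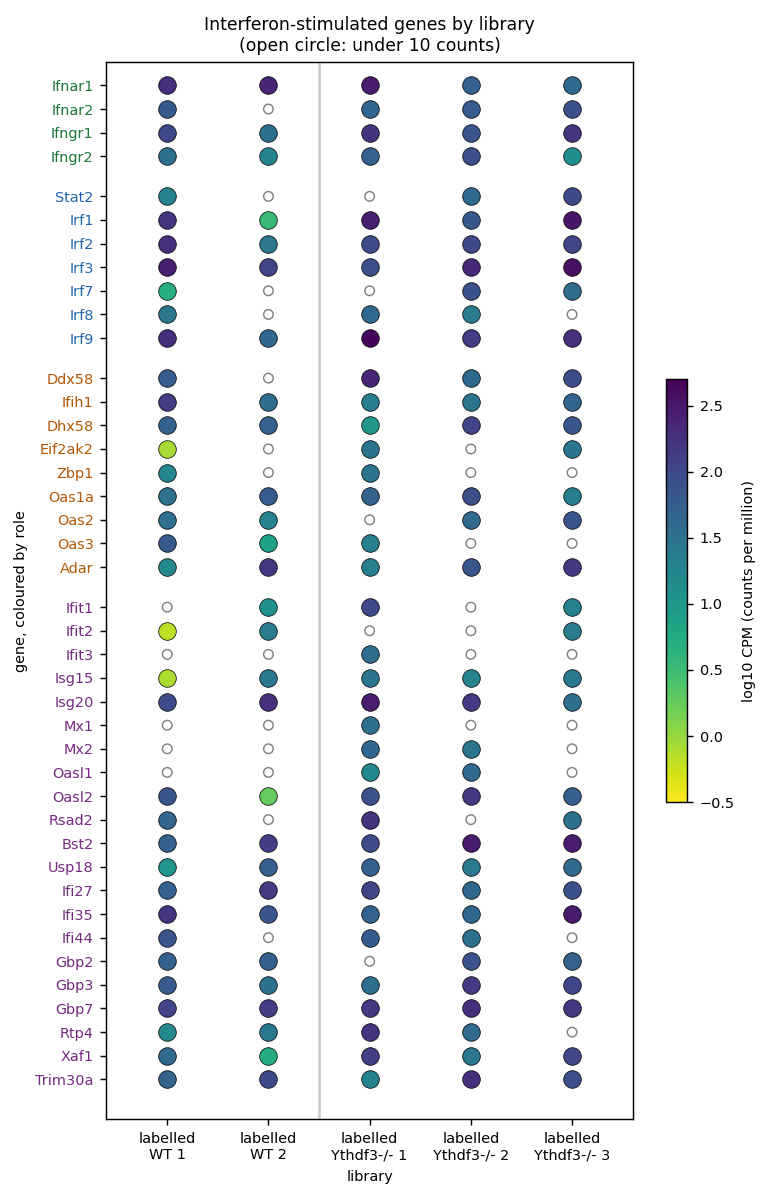
Level of each of the 41 genes (rows, grouped and coloured by role) in each library (columns) as log10 CPM; open circles mark under 10 counts. The 4 receptor rows hold 1 open circle (Ifnar2), whereas Ifit3 and Mx1 are filled in the library labelled Ythdf3-/- 1 alone.

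**Figure D3:**
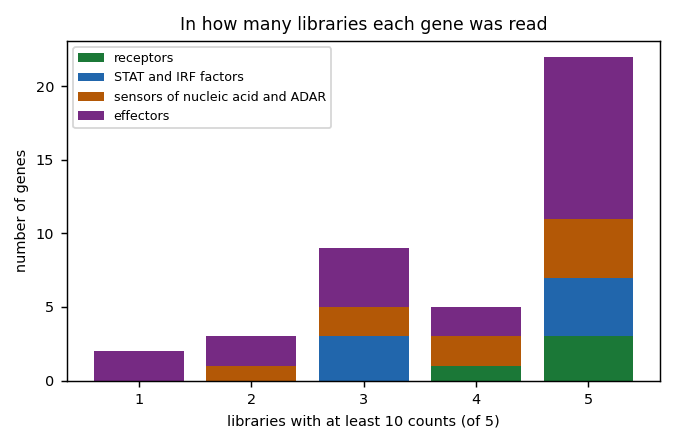
Number of genes (vertical axis, stacked by role) by the number of libraries with at least 10 counts (horizontal axis). The bar at 5 libraries holds 22 genes and includes 3 of 4 receptors, while both genes read in 1 library are effectors.

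In what follows, values for the 5 libraries are always given in the order WT 1, WT 2, Ythdf3-/- 1, Ythdf3-/- 2 and Ythdf3-/- 3, by label.

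Of the 4 receptor chains 3 were read in every library. Ifnar1 was read at 184, 234, 292, 52.0 and 42.0 CPM. Ifnar2, the other chain of the type I receptor, was read at 64.9, 0.892, 48.3, 62.0 and 83.9 CPM, so the library labelled WT 2 had 8 counts of it beside 2102 of Ifnar1. Ifngr1, the ligand-binding chain for interferon gamma, stood at 99.9, 33.8, 172, 71.0 and 165 CPM. The accessory chain Ifngr2 stood at 33.7, 18.6, 51.7, 84.4 and 13.0 CPM. For all 4 chains the labels overlapped. Ifnar2, Ifnar1 and Ifngr2 lie close together on chromosome 16 (Ifnar2 at 91372783 to 91405589, Ifnar1 at 91485032 to 91510523 and Ifngr2 at 91547059 to 91564007), yet their highest levels were in 3 different libraries.

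The 7 transcription factors divided into genes that were present everywhere and genes that came and went. Irf3, the factor that sensors switch on before any interferon is made, was read at 269, 111, 86.0, 212 and 367 CPM, and Irf2, which antagonises interferon-driven transcription, at 181, 27.3, 95.8, 103 and 104 CPM. Irf9, the DNA-binding part of the type I complex, stood at 191, 43.5, 450.0, 130.1 and 183 CPM. Irf1, an activator induced by interferon gamma, was at 164, 3.46, 273, 68.6 and 327 CPM, a range of 94.7 times. All 4 were lowest in the library labelled WT 2 except Irf3, which was lowest in that labelled Ythdf3-/- 1. Stat2, the partner of IRF9, was much less regular, with 324, 8, 4, 379 and 706 counts. Irf7, the amplifier of type I interferon production, had 81, 7, 3, 726 and 261 counts. Stat2 and Irf7 were thus near missing in the same pair of libraries, those labelled WT 2 and Ythdf3-/- 1. Irf8, a factor of monocyte, dendritic and B cell development, had 431, 7, 274, 220 and 7 counts.

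Among the sensors, the 3 helicases that detect viral RNA were read in nearly every library. Ddx58 (RIG-I) was at 59.5, 0.892, 235, 41.1 and 93.1 CPM. Ifih1 (MDA5) was at 136, 36.4, 22.0, 29.0 and 48.0 CPM, and Dhx58 (LGP2, which modulates the other two) at 50.9, 53.0, 9.91, 113 and 70.0 CPM. The library labelled Ythdf3-/- 1 therefore combined the highest Ddx58 with the lowest Ifih1 and Dhx58. Adar, which edits double-stranded RNA and keeps it from the sensors, was read at 15.9, 153, 21.5, 70.0 and 145 CPM; 22.8% of its exon bases are shared with Chrnb2 on the opposite strand, and no strand setting is given for the counts.

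The oligoadenylate synthases, which switch on RNase L, and the remaining sensors spread more widely. Oas1a stood at 32.7, 58.5, 49.9, 85.3 and 22.4 CPM, the steadiest of the sensors; 32.4% of the 150-base windows of its transcript occur also in Oas1g, which had 0, 0, 0, 26 and 0 counts of its own. Oas2 had 605, 160, 4, 386 and 487 counts, and Oas3 had 1100, 67, 134, 9 and 5. The 3 genes lie within a stretch of chromosome 5 from 120730333 to 120907544. Oas2 was lowest in the library labelled Ythdf3-/- 1, while Oas1a and Oas3 were lowest in that labelled Ythdf3-/- 3. Eif2ak2, the gene of the kinase PKR that halts translation, had 14, 8, 186, 1 and 197 counts. Zbp1, a sensor of Z-form nucleic acid, had 285, 2, 186, 2 and 1. Neither pattern followed the labels.

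The effectors ran from the steadiest gene of the set to the most erratic. Gbp7, a guanylate-binding GTPase of cell-autonomous defence, was read at 113, 131, 156, 186 and 157 CPM, so that its highest level was 1.64 times its lowest. Its mean was 122 ± 12.4 CPM (SD, n = 2) for the WT label. For the Ythdf3-/- label it was 166 ± 16.7 CPM (SD, n = 3), and all 3 libraries of the latter lay above both of the former. Of the exon bases of Gbp7, 11.3% are shared with Gm43802 on the same strand, and 8.93% of its 150-base windows occur also in Gm43802. Gbp3 stood at 62.6, 31.3, 35.7, 145 and 111 CPM, and Gbp2 at 51.5, 55.1, 0.472, 78.4 and 49.7 CPM. The 3 genes follow each other on chromosome 3 (Gbp7 at 142530336 to 142550151, Gbp3 at 142560016 to 142573213 and Gbp2 at 142620663 to 142638008). Gbp2 had 3 counts in the library labelled Ythdf3-/- 1, where Gbp7 had 993, although all 3 promoters printed above hold the ISRE core.

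Several small antiviral proteins were also transcribed in every library. Bst2 (tetherin, which holds budding virus at the cell surface) was read at 52.2, 132, 94.7, 283 and 275 CPM. Ifi27, a mitochondrial protein induced by interferon, stood at 53.0, 138, 111, 43.7 and 80.1 CPM. Isg20, an exonuclease of viral RNA, was at 97.0, 184, 289, 149 and 36.3 CPM, and Ifi35 at 159.9, 72.9, 49.9, 45.1 and 300.0 CPM. None of the 4 separated the labels.

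Isg15, a ubiquitin-like protein that is joined to other proteins, was nearly level in 4 libraries and low in 1, with 0.781, 26.1, 27.5, 18.0 and 25.4 CPM. Usp18, the protease that removes ISG15 and restrains the type I receptor, was lowest in the same library, with 10.6, 55.0, 54.4, 25.0 and 40.6 CPM. Thus the library labelled WT 1, the deepest of the 5, had 13 counts of Isg15 where the others had 163 to 234. Oasl2 stood at 68.8, 1.78, 78.5, 143 and 56.2 CPM, and Xaf1, a promoter of apoptosis, at 42.8, 5.58, 127, 26.9 and 108 CPM. Trim30a was at 51.5, 97.2, 18.7, 186 and 84.4 CPM.

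Genes commonly used as a readout of interferon, the IFIT and Mx families, were among those read in the fewest libraries. Ifit1, Ifit2 and Ifit3, whose proteins bind foreign RNA or each other, neighbour on chromosome 19. Ifit1 had 1, 112, 641, 4 and 133 counts, Ifit2 had 11, 214, 0, 0 and 162, and Ifit3 had 1, 0, 235, 1 and 0. Ifit1 and Ifit2 were both read in the libraries labelled WT 2 and Ythdf3-/- 3, while that labelled Ythdf3-/- 1 had Ifit1 and Ifit3 and no count of Ifit2. Of the 150-base windows of Ifit3, 18.5% occur also in Ifit3b, which had 1, 0, 15, 0 and 0 counts.

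The GTPase genes Mx1 and Mx2 had 2, 0, 209, 1 and 0 counts and 4, 5, 287, 254 and 4 counts. Mx1 was therefore present in a single library, the one that alone held Ifit3. Oasl1, a synthase-like inhibitor of Irf7 translation, had 2, 1, 102, 388 and 0 counts, so the same pair of libraries, those labelled Ythdf3-/- 1 and 2, held Mx2 and Oasl1. Rsad2 (viperin, which makes a chain-terminating nucleotide) had 791, 5, 1082, 4 and 240 counts. Ifi44 had 1222, 4, 388, 307 and 2, and Rtp4, an interferon-induced chaperone of receptors, had 259, 236, 1085, 360 and 4.

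**Figure D4:**
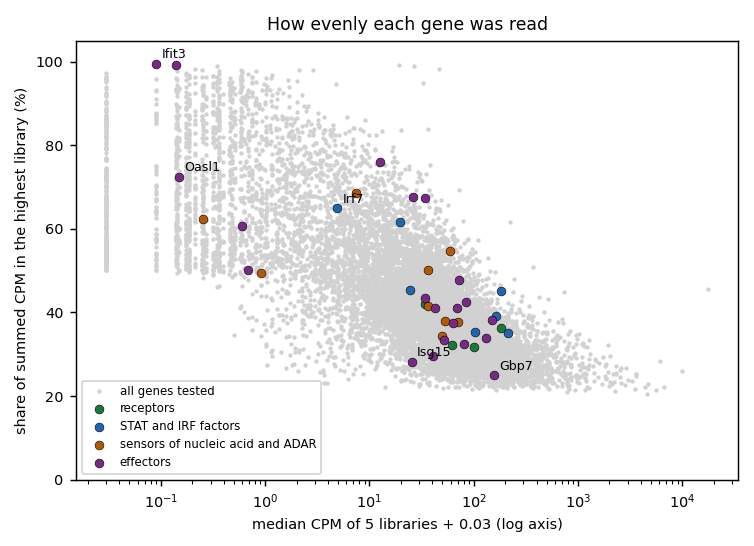
Share of a gene's CPM, summed over the 5 libraries, that lies in its highest library (vertical axis, %) against its median CPM (horizontal log axis, 0.03 added), for all 11146 genes tested (grey) and the 41 genes coloured by role. Ifit3 and Mx1 stand highest, at 99.5% and 99.3%, Gbp7 stands lowest of the 41, and the median share is 41.9% for the 41 genes and 40.8% for all genes tested.

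Compared with each other per length of transcript, the order of the genes was another one. As median CPM per kilobase of exon, Bst2 was highest at 167, followed by Irf3 at 97.0, Isg20 at 94.9, Ifi27 at 78.1 and Irf9 at 59.1. Ifi35, Irf1, Ifngr1 and Ifnar1 followed at 53.5, 49.2, 47.3 and 47.0, and these neighbours in the order do not differ beyond the spread of their libraries. Gbp7 stood at 27.8 and Oas1a at 26.5 on this scale. Below 1 lay 7 genes, namely Mx2, Eif2ak2, Ifit2, Zbp1, Oasl1, Ifit3 and Mx1.

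Each library lacked its own subset. Under 10 counts were found for 5, 13, 5, 8 and 9 of the 41 genes, in the usual order. At least 10 counts were found for 36, 28, 36, 33 and 32 of the 41. Of all 11146 genes tested, 9902, 9185, 8704, 9142 and 9084 had at least 10 counts. The library labelled WT 1 lacked Ifit1, Ifit3, Mx1, Mx2 and Oasl1. That labelled Ythdf3-/- 1 lacked Stat2, Irf7, Oas2, Ifit2 and Gbp2. None of these was under 10 counts in WT 1, but Ifit2 had only 11 counts (0.661 CPM) there, in the deepest library. In the library labelled WT 2, Ifnar2, Stat2, Irf7, Irf8 and Ddx58 all had 7 or 8 counts, while Ifnar1, Irf3 and Irf9 had 2102, 992 and 390. The effectors Ifit3, Mx1, Mx2, Oasl1, Rsad2 and Ifi44 and the sensors Eif2ak2 and Zbp1 were also under 10 counts there. Other effectors were read, and Ifit1, Ifit2, Isg15 and Usp18 had 112 or more. The library labelled Ythdf3-/- 3 had the highest Stat2 (101 CPM) and 133 or more counts of the same 4 effectors. It and that labelled WT 2 had 0 counts of Ifit3 and Mx1 and at most 1 of Oasl1. Other effectors differed between them, among them Rsad2, with 5 counts in WT 2 and 240 in Ythdf3-/- 3 by label. Rtp4 went the other way, with 236 and 4.

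Depth was equalised by thinning each library to the smallest total. After this, the number of genes with at least 10 counts went from 36 to 33 in the library labelled WT 1 and did not move in the others. At 1 CPM or more, 68.3% of the 41 genes were present in the library labelled WT 2, against 82.8% of all genes tested. In that labelled Ythdf3-/- 1 the share was 87.8%, against 78.9%. In those labelled WT 1, Ythdf3-/- 2 and Ythdf3-/- 3 it was 80.5%, 80.5% and 78.0%, against 86.1%, 82.0% and 82.5%. The highest level of a gene lay in the 5 libraries for 4, 4, 16, 11 and 6 of the 41 genes, against 19.8%, 22.9%, 19.7%, 18% and 19.6% of all genes tested. The lowest level, ties included, lay there for 7, 12, 9, 5 and 11 genes, against 17.1%, 24.3%, 26.5%, 21.2% and 20.7%. The library labelled Ythdf3-/- 1 thus led in highest levels, with 16 of the 41 genes. In lowest levels no library stood out. That labelled WT 2 had 12 genes, beside 24.3% of all genes tested, and that labelled Ythdf3-/- 3 had 11, beside 20.7%. The erythroid factor Gata1 was high in the library labelled WT 2, and globin and B lymphoid genes in that labelled Ythdf3-/- 1, as given above. Whether these have any part in the highest and lowest levels was not tested.

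Between the labels, 0 of the 41 genes passed. The edgeR quasi-likelihood test, adjusted over all 11146 genes tested, called 0% of them, and 39 of the 41 entered it; Ifit3 and Mx1 did not pass the filter on low counts. At an unadjusted p under 0.05 there were 0 of the 39 in edgeR (4.85% of all genes tested). DESeq2 gave 3 of the 39 and 1031 of all 11146 genes, and limma voom 2 of the 39 and 726 of all genes. Fitted levels were higher under the Ythdf3-/- label for 30 of the 39, against 47.8% of all genes tested, with a median log2 fold change of 0.69 against -0.063. For the 22 genes present in all libraries the count was 17 and the median 0.25. Without the library labelled WT 1 the median over the genes was 1.51, beside 0.31 over all genes tested, and that fit leaves 1 library under the WT label. With a stricter filter on low counts the median was 0.38. The summed monocyte and macrophage markers were also higher in every library labelled Ythdf3-/-, as given above, and their part in these values was not tested.

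Groups did not overlap for 2 of the 41 genes, both higher under the Ythdf3-/- label (9.74% of all genes tested), and 0 were lower throughout (11% of all genes tested). These were Gbp7 and Mx2. For Mx2 the separation rested on 5 counts in the library labelled WT 2 and 4 in that labelled Ythdf3-/- 3, and it was gone when CPM were scaled by TMM factors, which left Gbp7.

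Tests are given for the 3 genes of each role with the smallest p, all from edgeR with an adjusted p of 0.9998 unless stated. Of the receptors, Ifngr1 had a log2 fold change of 0.95 (SE 0.76), Ifnar1 of -0.79 (SE 0.84) and Ifngr2 of 0.86 (SE 1.38). Of the factors, Irf7 had 3.73 (SE 2.52), Irf9 1.05 (SE 0.77) and Irf1 1.35 (SE 1.28). Among sensors, Eif2ak2 had 4.34 (SE 3.01), Ifih1 -1.46 (SE 1.05) and Ddx58 1.97 (SE 1.5). Among effectors, Mx2 had 5.82 (SE 3.03) and Oasl1 7.18 (SE 3.75), each with an adjusted p of 0.984 in edgeR, and Bst2 had 1.14 (SE 0.69). Single libraries moved many of these values by over 1.5 times. Leaving out the library labelled WT 1 gave 5.86 for Irf1, 6.95 for Ddx58, 2.42 for Irf9, 1.87 for Ifngr1, 0.59 for Bst2, 1.30 for Ifngr2 and -0.27 for Ifih1. Leaving out that labelled WT 2 gave 0.41 for Irf1, 1.0 for Ddx58, 0.37 for Irf9, 0.41 for Ifngr1, 2.03 for Bst2 and 0.52 for Ifngr2. Of the libraries labelled Ythdf3-/-, leaving out the first gave -2.21 for Ifnar1, 1.11 for Ddx58 and 0.37 for Irf9, the second 0.23 for Ifngr2 and -0.42 for Ifnar1, and the third -0.37 for Ifnar1 and 1.32 for Ifngr2. Mx2 and Oasl1 were carried by 2 of 3 libraries, as their counts above show, and fitted changes of genes so near 0 depend on the prior count. Bst2 averaged 92.1 ± 56.4 CPM (SD, n = 2) and 218 ± 107 CPM (SD, n = 3).

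**Figure D5:**
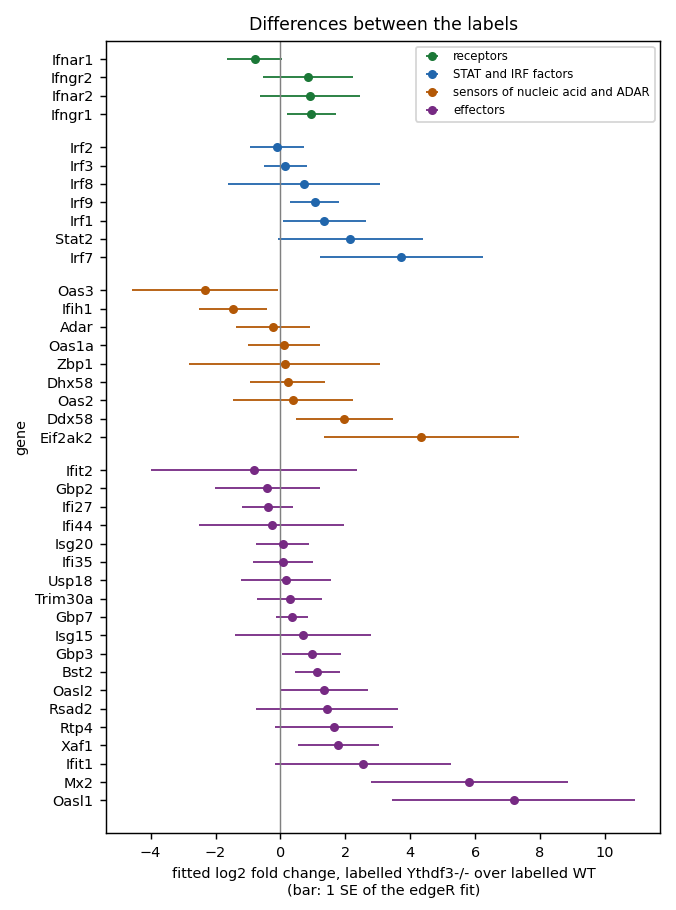
Fitted log2 fold change (horizontal axis; right of 0 is higher under the Ythdf3-/- label) with a bar of 1 SE for the 39 genes tested, grouped by role. Gbp7 has the shortest bar, 0.49, and the bars of Mx2 and Oasl1 are among the longest, at 3.03 and 3.75.

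The interferons themselves were not read. All 21 genes of type I, II and III interferons that were looked up had 0 counts in every library, which allows up to 0.180 CPM in the deepest library and 0.472 CPM in the shallowest, for counting error only.

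Other parts of the pathway were read in most libraries. Of 33 kinases, adaptors and regulators, 10 were steady and 4 near 0. Steady genes, named after their values were seen, included the kinases Jak1 and Jak2 and their inhibitor Socs1. The related genes Tyk2 and Socs3 were not steady. Tyk2 had 395, 30, 654, 3 and 0 counts and Socs3 had 3, 1, 0, 404 and 6, in the usual order. Of this list 26 genes were tested, 18 were fitted higher under the Ythdf3-/- label and 0 passed edgeR. The 4 with the smallest p were Stat3, the signal transducer of cytokines such as IL-6, at 156.8 ± 96.8 CPM (SD, n = 2) and 399.5 ± 144 CPM (SD, n = 3), Traf3, an adaptor of interferon induction, at 4.97 ± 5.59 and 89.0 ± 60.6 CPM, Irf5 at 11.9 ± 11.7 and 89.7 ± 72.0 CPM, and the phosphatase gene Ptpn6 at 184 ± 75.1 and 395 ± 262 CPM. Stat3 and Traf3 were higher in every library labelled Ythdf3-/- and had edgeR adjusted p of 0.983 and 0.964. Of the 33 genes 4 were higher and 4 lower in every such library, against 9.74% and 11% of all genes tested. The lower ones, named after their values were seen, were Ptpn2, Mavs, Mb21d1 and Ikbke. Mb21d1 did not enter the test, and its separation rested on 16, 3, 0, 0 and 2 counts in the usual order. That of Mavs rested on 36.0 CPM in the library labelled WT 2 against 34.8 CPM in that labelled Ythdf3-/- 3.

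Among 49 other interferon-stimulated genes, 8 were steady and 6 were at 0 in every library. Of 40 tested, 24 were fitted higher under the Ythdf3-/- label, 16 lower, and 0 passed edgeR. Ifi47, an immunity-related GTPase, averaged 140.0 ± 33.5 CPM (SD, n = 2) and 315 ± 77.8 CPM (SD, n = 3), and Tgtp2, of the same family, 222 ± 198 and 564 ± 139 CPM. Sp110, a nuclear body protein, went the other way, with 239 ± 60.4 and 103 ± 50.2 CPM, and the counts of Slfn5, in the usual order of libraries, were 36, 166, 0, 2 and 0. The groups of all 4 did not overlap; their edgeR adjusted p lay between 0.964 and 0.983. Over the 49 genes 7 were higher and 4 lower in every library labelled Ythdf3-/-, and groups did not overlap for 20.7% of all genes tested. Ly6e, named after its values were seen, was the most even of the list, with a highest level 1.31 times its lowest.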

How the data were processed

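The authors deposited a table of raw read counts, with 1 row per gene symbol. Per the submitters' processing notes, the tools include HISAT2 2.2.1 and HTSeq 0.12.4 and the build is mm10. Not given in the sources used here are the annotation, strandedness and the handling of multi-mapping reads. Such reads could move counts between near-identical copies, and without strand between genes that overlap on opposite strands. Groups follow the sample labels. Counts were tested in R 4.3.3 with edgeR 4.0.16 (quasi-likelihood, robust, TMM, default filter on low counts, no covariate, Benjamini-Hochberg at 0.05); DESeq2 1.42.0 and limma 3.58.1 were alternatives. SEs come from the F statistic. The test was also run on simulated data, and no result of that run is used here. P-values set the difference between the labels against the spread between these libraries. In the edgeR fit the common coefficient of variation between libraries of a label, beyond counting error, was 1.26.

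CPM are counts divided by the library total. Exon lengths and overlaps come from GENCODE M21 (GRCm38), gene positions and promoters from RefSeq GRCm38.p6, all 1-based. Shared windows are exact 150-base matches to the transcript of another gene. All 41 genes are accounted for; tests are shown for the 3 per role with the smallest p, and for other lists the 4 with the smallest p. The genes, lists and rules were chosen with earlier results of these data known. Smart-seq2 reads carry no molecule identifiers, so counting limits cover counting error only. Some genes of the marker and pathway lists are not reported here.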

Additional observations from a re-analysis of the deposited data

How the results depend on the processing

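No gene of the set was called under any of the 12 alternatives (other scalings, tools and filters, the replicate block, each library left out, and the libraries labelled WT 2 and Ythdf3-/- 1 left out together). Over all genes, DESeq2 called 250 and edgeR with no filter 21, against 0; without each replicate in turn the count was 0 to 1. The median log2 fold change of the set, 0.69, ranged from 0.49 to 1.51 without each replicate and was 0.62 with the replicate block, 0.38 with the stricter filter, 0.47 in limma voom (25 of 39 genes fitted higher, against 30) and 0.47 without the libraries labelled WT 2 and Ythdf3-/- 1. Genes whose groups do not overlap numbered 1 with TMM-scaled CPM and between 9 and 16 without each replicate, where fewer libraries make separation more frequent (33.3% to 52.6% of all genes tested). Steady genes numbered 1 at a limit of 3 times, 14 at 8 times, and 5 to 8 without each replicate. The log2 fold change of Irf9 turned to -0.34 without the libraries labelled WT 2 and Ythdf3-/- 1; the cause was not tested. In 133 other refits of single genes no direction and no call changed. The replicate numbers share no animal. Same-numbered libraries had correlations of -0.0043 and 0.00939 of their deviations from the group means. With 2 libraries labelled WT, their deviations mirror each other, so these values cannot show whether the numbers pair libraries. With the replicate block 0 genes were called over the table. Fits without a library labelled WT leave 1 under that label, taken to vary like the others. With 30 cells a library, genes under 10 counts cannot be ranked.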
